A study of Homo sapiens with 12 samples.

Results

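The zinc finger genes of chromosome 19 were taken as every RefSeq coding gene of that chromosome whose symbol is ZNF followed by a number. There were 240 such genes among 20056 coding genes of GRCh38.p14, 83 on the short arm (19p) and 157 on the long arm (19q). For each gene, the region with the highest mean among those within 1 kb of either annotated end stood for it, so no measured difference between groups chose the genes. Such a region was found for 132 of the 240 genes, on 128 distinct regions, and 108 genes had none.

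Acetylation of histone H3 at lysine 9 (H3K9ac), found at promoters and enhancers in use, was measured by chromatin immunoprecipitation sequencing in MOLM-13, a human acute myeloid leukaemia line with a KMT2A-MLLT3 fusion. The control group holds 3 libraries of DMSO-treated cells, and the treated group 3 libraries of cells kept for 4 days in 4 µM WM-1119, an inhibitor of the lysine acetyltransferase KAT6A. Both groups are the same line, the labels name no other agent, and the series asks how KAT6A inhibition changes the chromatin of these cells. Nothing in the labels ties replicates to separate cultures, and the p-values then rest only on the spread among these libraries, which may be technical. Values are CPM, reads per 1000000 reads in the 47648 listed regions of hg38, and a gain or loss over all regions alike cannot be seen in them. Cells that carry the mark in smaller number and cells that carry less of it cannot be told apart in these bulk libraries.

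Most ZNF genes encode proteins that bind DNA through a row of zinc fingers, and many of those on chromosome 19 carry a KRAB domain at the other end. A KRAB domain recruits the corepressor TRIM28, which brings the methyltransferase SETDB1 and HP1 proteins and so places methyl groups on the same lysine 9 that H3K9ac occupies. The family is known for silencing retroelements and has grown by tandem duplication, so that chromosome 19 holds long runs of related copies. The sources used here do not give whether reads that match several copies were kept, so a value at a closely related copy is less certain than one at a unique gene.

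The libraries differed in depth, from 719329 reads in regions for DMSO replicate 1 to 12705349 for WM-1119 replicate 3. DMSO replicates 1 and 2 stood apart from the other 4 libraries. Their background on chromosome 19, taken as the 10th percentile of CPM per kb among regions of 500 to 1200 bp, reached 10.6 and 10.2, where the others had 3.81 to 5.26. All 8 marker genes of the line had a region, and those of SPI1, the gene of a myeloid transcription factor, and of HOXA9 had means of 245 and 1048 CPM. CD33 and CSF1R were near the floor at 3.67 and 3.09 CPM. Of 9 markers of T, B, erythroid, epithelial and connective tissue cells 4 had no region, and the other 5 had means of at most 4.83 CPM.

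Runs of zinc finger genes were defined by gaps of at most 1 Mb between neighbouring gene starts, which gave 16 clusters, numbered from the tip of 19p. The share of genes with a region differed between clusters. In cluster 5, the last before the centromere (19.7 to 24.1 Mb), 10 of 37 genes had one (27.0%). In cluster 15 on 19q (51.6 to 53.6 Mb) 15 of 39 did (38.5%), and in cluster 9 (36.2 to 37.8 Mb) 11 of 24 (45.8%). Cluster 16 near the tip of 19q (55.5 to 58.5 Mb), with 57 genes the largest of the 16, had 39 (68.4%), and clusters 12, 3 and 2 had 66.7%, 60% and 80%. Over both arms the share was 55.0%, with 51.8% on 19p and 56.7% on 19q. By the same rule it was 67.1% for the 1211 other coding genes of chromosome 19 and 76.8% for the 237 ZNF genes of other chromosomes. These shares describe 1 table from 1 cell line and were not tested.

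**Figure D1:**
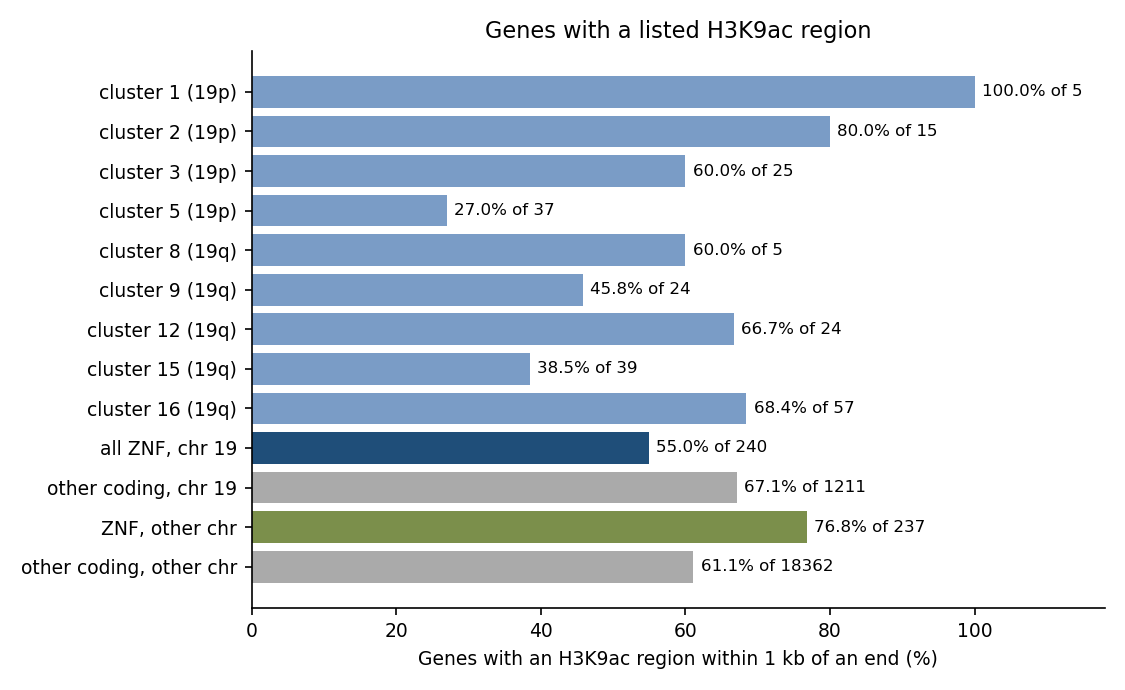
Share of genes with a listed H3K9ac region within 1 kb of an annotated end (horizontal axis, %), for clusters of at least 5 zinc finger genes and for 4 wider sets; the number of genes stands beside each bar. Cluster 5 has the shortest bar, at 27.0% of 37 genes, and cluster 1 the longest, at 100% of 5.

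Most genes of cluster 5 without a region lay side by side. The table listed no region at all over 1918 kb of chromosome 19, from 21767881 to 23686171, which holds 13 of the zinc finger genes and no other coding gene. They include ZNF91, known for repressing SVA retroelements, and ZNF208, ZNF43 and ZNF98. A second such stretch, of 1199 kb from 19821629 to 21020199, holds 9 zinc finger genes and 1 other coding gene. Among the 9 are ZNF93, which is known to bind LINE retroelements, ZNF85 and ZNF90. Another runs from 23687313 across the centromere to 27779761 and holds ZNF681, ZNF726 and ZNF254, with 1 other coding gene. These stretches hold 25 of the 27 genes of cluster 5 that have no region, and ZNF14 and ZNF738 are the others. A gene without a region is one for which the table lists none, which does not show that the mark is absent. The gene of TRIM28 itself, at 58544064 to 58550715, is such a case: the last region of chromosome 19 ends at 58521971, and none of the 4 coding genes that start beyond it has a value.

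On 19q a stretch of 787 kb without a listed region, from 56404699 to 57191302 in cluster 16, holds 5 zinc finger genes. They are ZNF667, ZNF471, ZNF470, ZNF71 and ZNF835, and 9 other coding genes lie in the same stretch. Another, of 391 kb, holds ZNF813 and ZNF331 at the end of cluster 15, with 1 other coding gene. Such stretches were not confined to zinc finger genes: that of 949 kb from 42423695 to 43372378 holds 14 other coding genes and 0 zinc finger genes. Of all 108 zinc finger genes without a region at an end, 15 had a region inside the gene and 20 had one within 10 kb of an end. The median distance to the nearest region was 37.5 kb. The genes just outside the limit of 1 kb were ZNF225, ZNF550, ZNF444 and ZNF878, whose nearest regions lay 1408, 1516, 1585 and 1602 bp away with means of 30.6, 10.0, 4.53 and 3.19 CPM. Just inside it were ZNF544, ZNF575, ZNF358 and ZNF701, at 791, 793, 896 and 969 bp with 6.37, 1.75, 41.5 and 4.08 CPM. The regions of ZNF544, ZNF358 and ZNF701 lie at the far end of the gene. ZNF544 shares its region with ZNF8, and ZNF358 shares its region with MCOLN1.

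Promoter windows from RefSeq (GRCh38.p14) run from 250 bases before to 50 bases after a gene's start, and 210 of the 240 genes had one. The 6 windows printed here show what cluster 5 shares. ZNF430 has a region, ZNF91 and ZNF208 have none, ZNF101 is the strongest gene of the cluster, and ZNF787 and ZNF766 are strong genes of 19q. Capitals mark matches on either strand to 5 motifs. The GC box, bound by SP factors, was searched as GGGCGG. The core site of the ETS family of factors was searched as CCGGAAG. The letters for the factor NRF1 were TGCGCA, those for the factor YY1 were AAGATGG, and the TATA box was searched as TATAAA.
ZNF430 (chr19:21020407-21020706, plus strand): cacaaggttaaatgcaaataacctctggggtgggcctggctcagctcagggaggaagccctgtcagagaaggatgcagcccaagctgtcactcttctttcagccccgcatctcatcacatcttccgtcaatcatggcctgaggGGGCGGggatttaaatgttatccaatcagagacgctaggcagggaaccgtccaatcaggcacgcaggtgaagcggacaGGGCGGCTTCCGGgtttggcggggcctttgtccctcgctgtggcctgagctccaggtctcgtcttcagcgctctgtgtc
ZNF91 (chr19:23395422-23395721, minus strand): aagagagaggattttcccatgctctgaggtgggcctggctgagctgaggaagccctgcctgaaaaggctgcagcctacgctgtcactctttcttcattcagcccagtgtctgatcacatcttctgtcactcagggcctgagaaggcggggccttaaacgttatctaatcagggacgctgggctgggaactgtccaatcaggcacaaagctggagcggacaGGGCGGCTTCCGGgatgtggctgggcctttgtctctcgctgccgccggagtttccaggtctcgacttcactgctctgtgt
ZNF208 (chr19:22010894-22011193, minus strand): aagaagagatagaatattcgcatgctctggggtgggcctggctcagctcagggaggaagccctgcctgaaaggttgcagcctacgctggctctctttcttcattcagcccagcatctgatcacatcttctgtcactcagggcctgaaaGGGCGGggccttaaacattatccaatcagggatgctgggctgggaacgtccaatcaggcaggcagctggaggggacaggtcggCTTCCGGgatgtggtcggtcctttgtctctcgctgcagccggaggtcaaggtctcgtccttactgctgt
ZNF101 (chr19:19668589-19668888, plus strand): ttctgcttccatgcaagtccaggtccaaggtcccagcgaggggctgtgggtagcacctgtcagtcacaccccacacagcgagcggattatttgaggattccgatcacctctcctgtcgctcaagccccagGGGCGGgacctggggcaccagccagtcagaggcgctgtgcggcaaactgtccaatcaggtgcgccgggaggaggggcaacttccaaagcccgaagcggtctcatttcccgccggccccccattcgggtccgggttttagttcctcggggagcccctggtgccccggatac
ZNF787 (chr19:56121246-56121545, minus strand): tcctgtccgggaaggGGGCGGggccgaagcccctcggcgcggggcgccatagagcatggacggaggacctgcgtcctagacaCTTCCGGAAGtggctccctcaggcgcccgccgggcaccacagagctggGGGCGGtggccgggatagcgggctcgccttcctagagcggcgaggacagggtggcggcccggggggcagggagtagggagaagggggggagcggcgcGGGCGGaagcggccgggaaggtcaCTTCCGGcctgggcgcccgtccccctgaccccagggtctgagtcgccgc
ZNF766 (chr19:52269337-52269636, plus strand): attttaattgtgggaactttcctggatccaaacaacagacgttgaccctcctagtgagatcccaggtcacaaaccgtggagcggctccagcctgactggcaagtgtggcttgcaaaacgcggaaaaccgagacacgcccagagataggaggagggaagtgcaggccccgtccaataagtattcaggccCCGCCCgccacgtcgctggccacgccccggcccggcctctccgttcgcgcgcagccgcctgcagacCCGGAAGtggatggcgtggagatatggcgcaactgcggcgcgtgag

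The windows of ZNF430, ZNF91 and ZNF208 each hold a GC box and an ETS core, whose first base lies at -23, -24 and -19 relative to the start. In ZNF430 and ZNF91 a GC box directly abuts the ETS core, and in ZNF787 a pair of ETS cores on opposite strands overlap. The identity in a global alignment was 81.0% between ZNF430 and ZNF91, 80.3% between ZNF430 and ZNF208 and 88.0% between ZNF91 and ZNF208. ZNF101, in the same cluster, was 58.7% identical to ZNF430 and to ZNF91. ZNF787 and ZNF430 were 54.3% identical. Over the 29 windows of cluster 5 the median identity of all pairs was 77.7%, against 51.7% to 56.0% in the other clusters with at least 10 windows. ZNF431 and ZNF714, both with a region, were 91.0% identical, and no window of another cluster had a partner at 90% or above.

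ETS cores were found in 21 of the 29 windows of cluster 5 (72.4%), and in 19 of those 21 a match began in the 60 bases before the start. The same letters were in 62.5% of the windows of cluster 15 and 59.6% of those of cluster 16. They were in 8.33% of those of cluster 3, in 35.9% of the windows of ZNF genes on other chromosomes and in 14.2% of all coding genes' windows. Genes with and without a region both held these letters, and the shares were not tested. In cluster 5 they were in 66.7% of 9 windows with a region and 75% of 20 without, and over all clusters in 41.2% of 119 and 47.3% of 91. Clusters went opposite ways: in cluster 9 the letters were in 0 of 11 windows with a region and 4 of 12 without, and in cluster 16 in 65.7% and 47.1%. GC boxes were in 70.6% of the windows of genes with a region, 67.0% of those without and 58.3% of all coding genes' windows. Windows of cluster 5 had a median of 10 CpG dinucleotides, against 18 for all zinc finger genes without a region, 22 for those with one and 22 for all coding genes. A match is a description of the letters only.

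**Figure D2:**
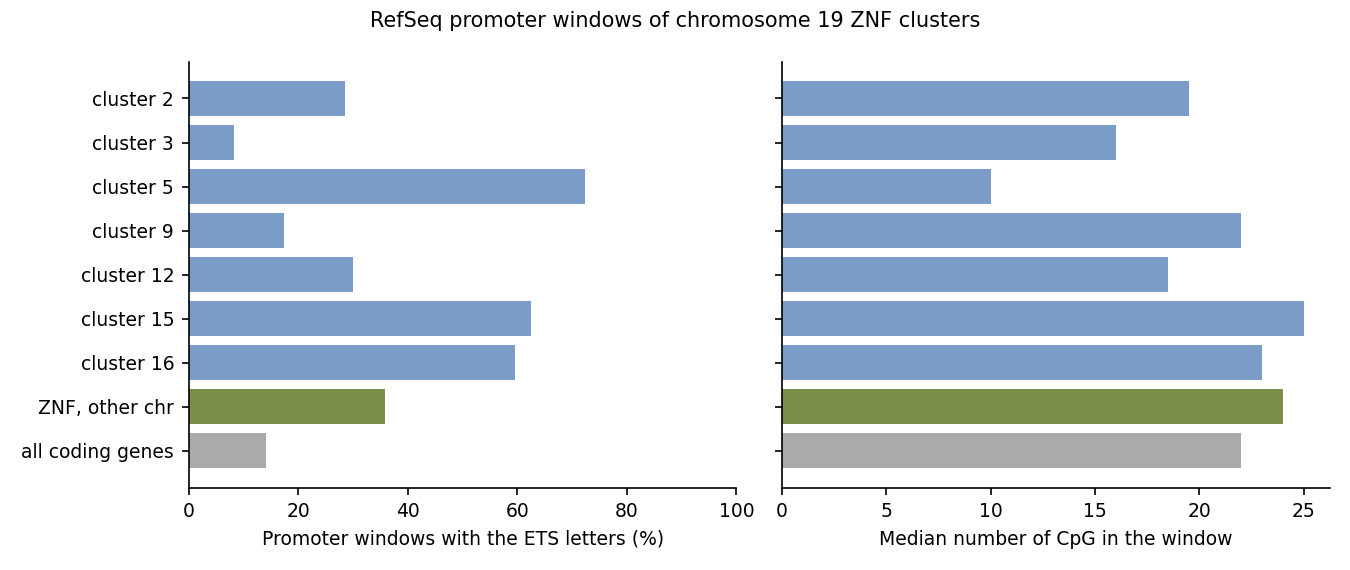
Left, share of RefSeq promoter windows with the letters of the ETS core on either strand (%); right, median number of CpG dinucleotides per window of 300 bases; bars are clusters with at least 10 windows, ZNF genes of other chromosomes and all coding genes. Cluster 5 has the longest bar on the left, at 72.4%, and the shortest on the right, at 10.

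Where a region was listed, it lay at the start of the gene. Of the 119 genes with a region and a known strand, 113 had it at the start only, 1 at both ends and 5 at the far end only, and in 106 it overlapped an annotated start. The 132 genes had means over the 6 libraries from 1.75 to 192 CPM, with a median of 29.0, and their regions were 147 to 4669 bp wide with a median of 1332 bp. The 651 regions at other gene ends of chromosome 19 that were tested were stronger and wider, with medians of 65.4 CPM and 1966 bp. ZNF genes of other chromosomes had medians of 58.2 CPM and 1932 bp. Within the same range of means the density was close: among regions of 20 to 50 CPM the median was 22.2 CPM per kb for 48 zinc finger genes and 22.2 for 121 other regions. For 50 to 100 CPM it was 38.7 for 35 genes and 34.5 for 163 regions. Mean and width went together over the 132 genes (Spearman's rho 0.91, across genes that share the libraries). For 23 of the 132 the region was also at an end of another coding gene. Their median was 55.5 CPM, against 26.9 for the other 109.

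**Figure D3:**
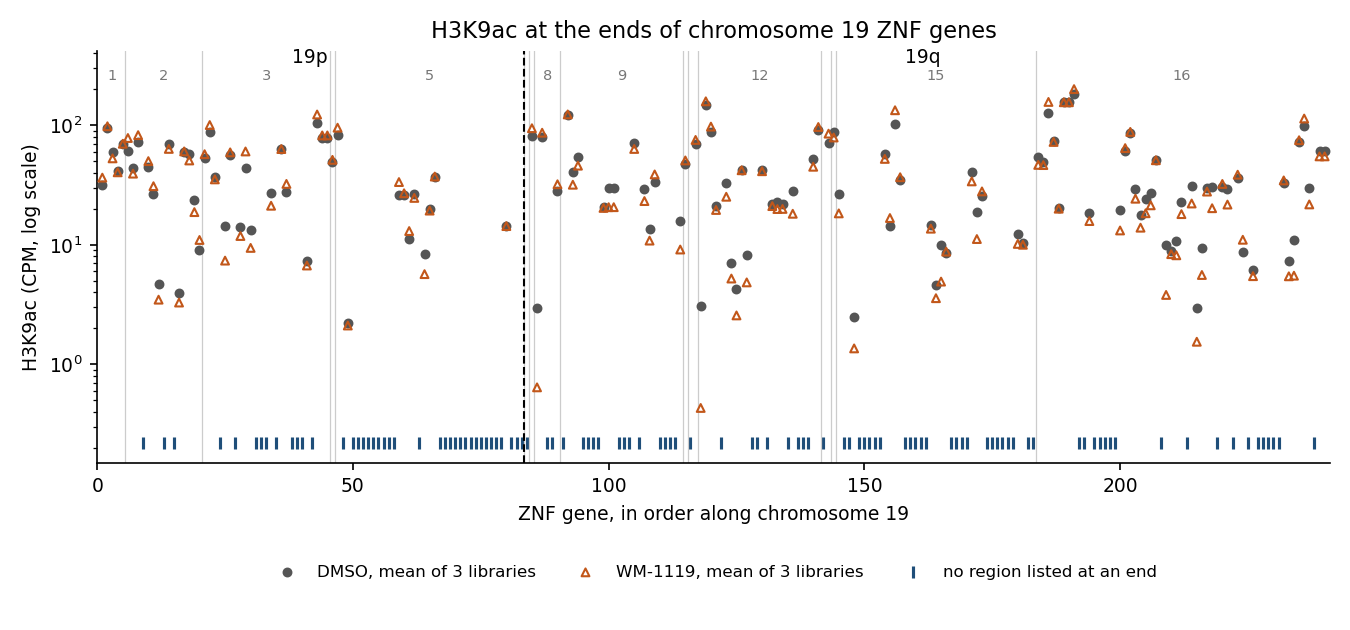
Mean H3K9ac (vertical axis, CPM on a log scale) of each zinc finger gene in order along chromosome 19, as the mean of 3 DMSO (filled circles) and 3 WM-1119 libraries (open triangles), with ticks at the foot for genes with no listed region; thin lines part clusters, numbered where they hold at least 5 genes, and the dashed line parts 19p from 19q. The ticks are densest in cluster 5, where 27 of 37 genes have no region, and the means of genes with one span 1.75 to 192 CPM.

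The strongest gene was ZNF787 in cluster 16, whose region at 56118630 to 56122150 had 167, 169 and 215 CPM under DMSO replicates 1, 2 and 3 and 190, 206 and 205 CPM in the WM-1119 replicates. The groups overlapped, and its log2 change was 0.14 ± 0.15 (SE). ZNF580 and ZNF581, neighbours in the same cluster, share the region at 55640295 to 55644963, with 132, 169 and 173 CPM under DMSO and 147, 162 and 159 CPM under WM-1119. The WM-1119 libraries lay inside the DMSO range, and the log2 change was -0.01 ± 0.16 (SE). ZNF576 in cluster 12 had 147, 139 and 153 CPM and 192, 143 and 141 CPM, with WM-1119 replicate 1 above the other 5 libraries. ZNF146 in cluster 9, which encodes a protein made almost wholly of zinc fingers, had 91.8, 122 and 154 CPM under DMSO and 104, 131 and 135 CPM under WM-1119. Its group means were both 123 CPM, and the DMSO libraries spread wider than the WM-1119 libraries.

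Of the strongest genes of other clusters, ZNF766, ZNF114, ZNF564 and ZNF507 were also among the genes of smallest p and are given further on, with log2 changes of 0.43, 0.29, 0.24 and 0.23. In the others the smallest unadjusted p in limma was 0.205, that of ZNF414. On 19p ZNF555 had 94.5 ± 13.8 CPM under DMSO and 98.1 ± 5.73 CPM under WM-1119 (± SD, 3 libraries per group, here and below), ZNF414 72.0 ± 19.8 and 82.7 ± 3.84, and ZNF333 49.6 ± 5.70 and 51.4 ± 1.87. ZNF101, the strongest gene of cluster 5, had 75.1, 79.3 and 92.5 CPM under DMSO and 92.9, 99.8 and 93.5 CPM under WM-1119. Its groups did not overlap, but the nearest libraries were almost level and the adjusted p was 0.481 in limma. On 19q ZNF181 had 79.8 ± 17.5 and 86.6 ± 0.502 CPM, ZNF546 47.6 ± 15.7 and 50.8 ± 4.57, and ZNF526 69.8 ± 10.5 and 75.4 ± 7.56. ZNF473, which encodes a protein of histone pre-mRNA processing and shares its region with VRK3, had 87.4 ± 25.9 and 79.0 ± 15.4 CPM. ZNF274, which encodes a zinc finger protein that recruits SETDB1 to the 3' ends of other ZNF genes and was singled out after its values were seen, had 32.8 ± 11.4 and 34.6 ± 12.0 CPM.

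With WM-1119 no zinc finger gene of chromosome 19 passed the test. limma on log2(CPM + 1), with Benjamini-Hochberg adjustment at 0.05 over the 44763 regions whose mean was 1 CPM or more, called 0 of the 132 genes, and the smallest adjusted p was 0.339. Over all regions 27 passed (0.0603%), each of them lower. At an unadjusted p under 0.05 4 of the 132 genes were higher and 5 lower, where 2.58% of all regions were higher and 10.8% lower. Groups that do not overlap were seen in 3 genes for higher and 16 for lower values, beside 3.76% and 13.2% of all regions. Both non-overlap counts lie near their background over all regions, most of which had a log2 change below 0. The count of lower genes at an unadjusted p under 0.05 lies below its background. Gene ends differed from that background: of 810 other coding genes of chromosome 19, with stronger regions, 67 did not overlap for higher and 46 for lower values. All 3 higher zinc finger genes lay on 19p, which holds 43 of the 132. Of the 16 lower ones 13 lay on 19q, which holds 89 of the 132. The regions of 19q were weaker, with a median of 26.3 CPM against 37.0 on 19p. These differences were not tested. edgeR's quasi-likelihood test on recovered reads of 5 libraries called 0 genes as well, and its unadjusted p lay under 0.05 for 0 higher genes and 1 lower gene, beside 0.782% and 3.96% of all regions. The scale log2(CPM + 1) understates the change of weak regions.

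The median of the 132 log2 changes was -0.07, between quartiles of -0.34 and 0.09, with 50 above 0 and 82 below, beside a median of -0.47 over all tested regions. On 19p the median was 0.03, with 23 genes above 0 and 20 below, and on 19q it was -0.14, with 27 and 62. The sign of the 132-gene median turned with median centring, to 0.70, and in edgeR, to 0.32, while the median of all regions moved to 0.30 and -0.13. Of the clusters with at least 10 measured genes, cluster 3 had the highest median, 0.09 over 15 genes, and cluster 9 the lowest, -0.30 over 11. The 10 genes of cluster 5 had a median of 0.03. The median CPM over the 132 genes was 32.0, 31.2 and 29.5 in DMSO replicates 1, 2 and 3 and 29.8, 28.5 and 27.3 in WM-1119 replicates 1, 2 and 3. Summed over the 128 distinct regions they took 0.498% to 0.553% of all CPM under DMSO and 0.516% to 0.529% in WM-1119, and the groups overlapped.

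With all 6 libraries the change followed the strength of the region, in zinc finger genes and in other gene ends alike. Of the zinc finger genes with a mean of 1 to 5 CPM, 0 of 9 had a log2 change above 0, and of those of 100 to 200 CPM 7 of 9 did. The class medians were -0.44, -0.37, -0.22, -0.08, 0.06 and 0.14 for classes that begin at 1, 5, 10, 20, 50 and 100 CPM. In the same classes other chromosome 19 gene-end regions had medians of -0.76, -0.72, -0.40, -0.09, 0.07 and 0.18. Zinc finger genes were thus nearer to 0 among the weak classes, which hold 9, 14 and 17 of them, and at nearly the same level from 20 CPM upward. Over the 35 genes of 19q and the 13 of 19p between 20 and 50 CPM the medians were -0.20 and 0.03. The rho of mean and log2 change over the 132 genes was 0.61, but both come from the same 6 libraries. The 23 genes under 10 CPM had medians of 6.95, 6.93 and 4.41 CPM in DMSO replicates 1, 2 and 3. In WM-1119 replicates 1, 2 and 3 they had 6.16, 4.30 and 3.86 CPM. Without DMSO replicates 1 and 2 the median log2 change of all regions then tested was 0.06, with DMSO replicate 3 as the only control library. How far the trend rests on those DMSO libraries was not tested.

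**Figure D4:**
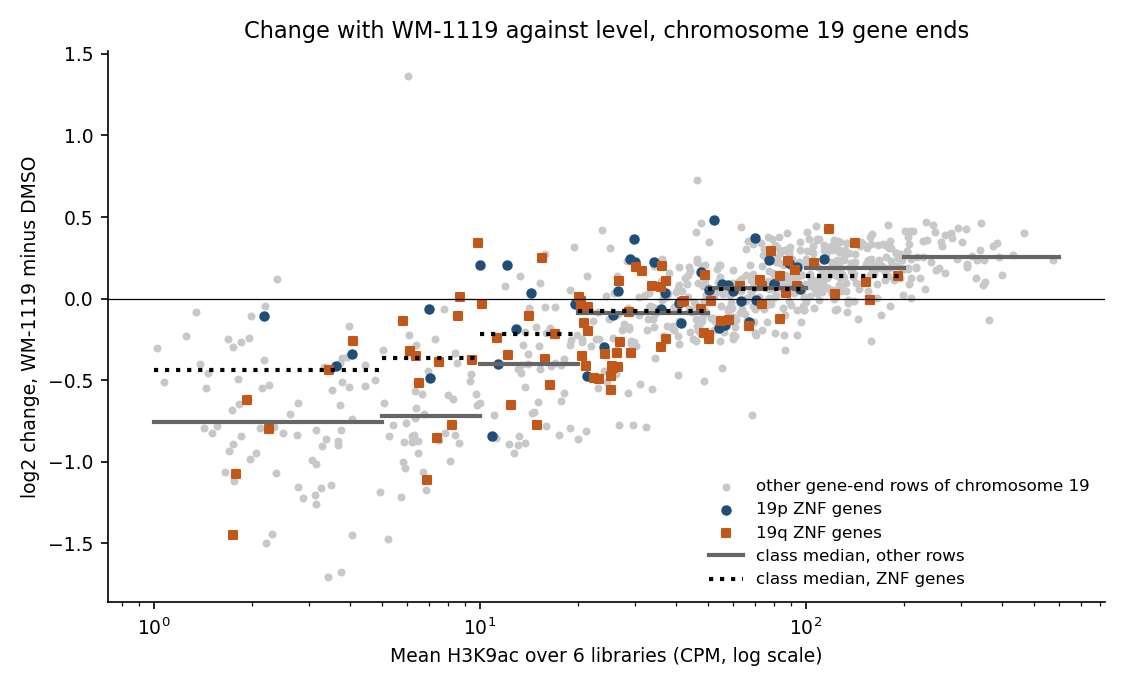
Log2 change, WM-1119 minus DMSO (vertical axis), against the mean H3K9ac over 6 libraries (CPM, log scale) for zinc finger genes of 19p (circles) and 19q (squares) and for other gene-end regions of chromosome 19 (grey); solid and dotted lines are the class medians of the other regions and of the zinc finger genes. With all 6 libraries, both medians climb from below 0 for weak regions to 0.14 for zinc finger genes and 0.18 for other regions of 100 to 200 CPM.

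With the other regions weighted to the zinc finger genes' strength, their median was -0.18, so the zinc finger genes lay 0.11 above them on the log2 scale. The difference depended on particular DMSO libraries. Taken library by library, the zinc finger genes stood at -0.25 and -0.21 relative to other regions of their strength in DMSO replicates 1 and 2, at 0.03 in DMSO replicate 3 and at -0.06, -0.16 and -0.19 in WM-1119 replicates 1, 2 and 3. The WM-1119 libraries all lay between the DMSO libraries. Without DMSO replicates 1 and 2 together, which leaves DMSO replicate 3 as the only control library, the difference was -0.12, the opposite sign. Without DMSO replicate 3 it was 0.22. Without DMSO replicates 1 and 2 in turn it was 0.04 and 0.07. The raised background of DMSO replicates 1 and 2 moves with this result, and its part in it was not tested.

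Of the genes with higher values under WM-1119 and a mean of at least 10 CPM, those of smallest p were ZNF766, ZNF700, ZNF524, ZNF557, ZNF114, ZNF430, ZNF564 and ZNF507. ZNF766 had 77.9, 86.3 and 144 CPM under DMSO and 127, 134 and 139 CPM under WM-1119, and its log2 change was 0.43 ± 0.17 (SE) with an adjusted p of 0.34 in limma. DMSO replicate 3 lay above all 3 WM-1119 libraries. ZNF700 had 34.8, 36.2 and 61.4 CPM under DMSO and 50.9, 63.9 and 66.4 CPM under WM-1119, and its log2 change was 0.48 ± 0.20 (SE) with an adjusted p of 0.35 in limma. In ZNF700 DMSO replicate 3 fell within the WM-1119 range and the other DMSO libraries below it. ZNF524, which shares its region with FIZ1, had 97.3, 114 and 168 CPM under DMSO and 135, 161 and 174 CPM under WM-1119, again with DMSO replicate 3 inside the WM-1119 range.

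ZNF557 and ZNF430 were the named genes of this direction, apart from ZNF101, whose groups did not overlap. ZNF557 had 51.4, 56.2 and 75.8 CPM under DMSO and 77.7, 77.4 and 79.6 CPM under WM-1119, and ZNF430 had 22.2, 26.2 and 29.4 CPM and 35.4, 31.7 and 33.3 CPM. In both the highest DMSO library was replicate 3, below the lowest WM-1119 library. Their log2 changes were 0.37 ± 0.18 and 0.36 ± 0.23 (SE), with limma adjusted p of 0.371 and 0.421. ZNF114 averaged 70.9 ± 20.501 CPM under DMSO and 85.1 ± 10.6 under WM-1119. ZNF564 averaged 105 ± 20.51 and 123 ± 10.7 CPM, and ZNF507 averaged 81.6 ± 17.0 and 94.4 ± 5.86 CPM. With DMSO replicates 1 and 2 left out, ZNF766, ZNF700, ZNF524, ZNF114, ZNF564 and ZNF507 turned to log2 changes of -0.11, -0.03, -0.10, -0.10, -0.05 and -0.07. DMSO replicate 3 is then the only control library.

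Among the genes with lower values in WM-1119 and a mean of at least 10 CPM, the smallest p belonged to ZNF816, ZNF491, ZNF551, ZNF175, ZNF345 with ZNF790, ZNF573 and ZNF235. ZNF816 in cluster 15 had 19.5, 20.02 and 17.1 CPM under DMSO and 6.38, 12.1 and 15.0 CPM under WM-1119, and its log2 change was -0.78 ± 0.34 (SE) with an adjusted p of 0.353 in limma. The groups did not overlap, and WM-1119 replicate 1 was the lowest by a wide margin. Its region is also that of the read-through gene ZNF816-ZNF321P. ZNF491 in cluster 3 had 13.9, 18.5 and 10.7 CPM under DMSO and 7.71, 7.10 and 7.32 CPM under WM-1119, and its log2 change was -0.84 ± 0.39 (SE) with an adjusted p of 0.358 in limma. Its groups did not overlap either, and its DMSO libraries were spread much wider than its WM-1119 libraries. ZNF175 had 25.02, 32.3 and 21.8 CPM under DMSO and 18.9, 17.2 and 18.8 CPM under WM-1119, without overlap, with a log2 change of -0.49 ± 0.27 (SE).

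In the remaining lower genes DMSO replicate 3 or 1 lay among or below the WM-1119 libraries. ZNF345 and ZNF790 start head to head and share the region at 36849815 to 36851576, with 37.5, 34.7 and 17.4 CPM under DMSO and 27.5, 18.5 and 15.9 CPM under WM-1119. ZNF235 had 44.5, 25.4 and 15.0 CPM under DMSO and 21.8, 16.6 and 16.1 CPM under WM-1119, with DMSO replicate 3 the lowest of the 6. ZNF573 had 20.9, 17.7 and 8.82 CPM and 9.47, 9.50 and 8.42 CPM. For these 4 genes the log2 change was -0.48, -0.48, -0.49 and -0.65 with all libraries, and 0.20, 0.20, 0.25 and 0.04 without DMSO replicates 1 and 2. ZNF551 had 20.9, 35.4 and 35.0 CPM under DMSO and 14.5, 22.01 and 24.2 CPM under WM-1119, where DMSO replicate 1 was the low library. The smallest p of all 132 genes was that of ZNF575, singled out after its values were seen. Its region is 147 bp wide, with 4.17, 3.85 and 1.20 CPM for DMSO and 0.881, 0.1 and 0.315 CPM under WM-1119. A count of 0 allows up to 4.17 CPM under DMSO replicate 1, for counting error only, so this gene lies at the limit of that library. With the limit of 3 reads taken for each library at its own depth, 7 of the 132 genes lay at or under it in DMSO replicate 1, and at most 2 in any other library.

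**Figure D5:**
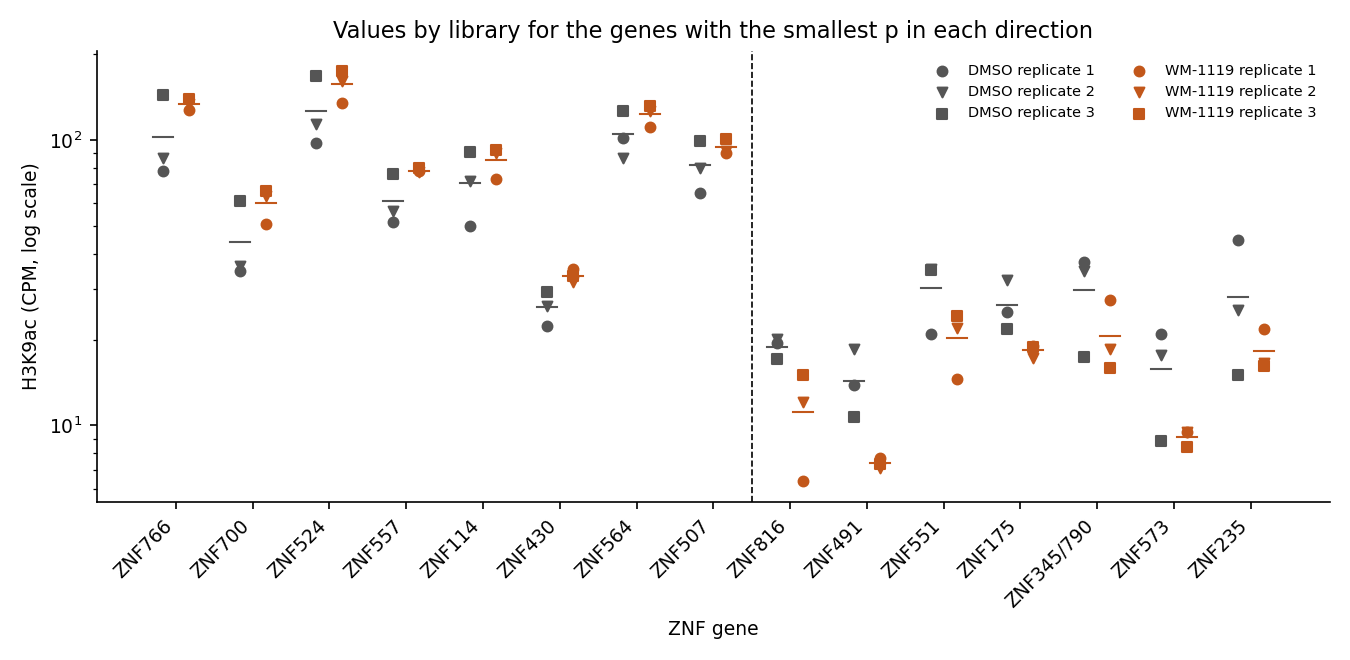
H3K9ac (vertical axis, CPM on a log scale) in each library for the genes with the smallest p, higher in WM-1119 on the left of the dashed line and lower on the right; grey points are DMSO and orange points WM-1119, shapes give the replicate number and short lines the group means. In ZNF766 DMSO replicate 3, at 144 CPM, lies above the WM-1119 libraries at 127 to 139 CPM, and in ZNF235 it lies below them, at 15.0 CPM against 16.1 to 21.8 CPM.

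DMSO replicate 3 decided whether any gene passed. Without it limma called 24 of the 132 genes, 7 higher and 17 lower, where 5.28% of all regions were called higher and 38% lower. ZNF766 and ZNF700 then had log2 changes of 0.70 and 0.74 with adjusted p of 0.00571 and 0.00863, and ZNF573 and ZNF491 changes of -0.999 and -1.03 with 0.0113 and 0.0133. Leaving out any other single library called 0 of the 132 genes.

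The corepressor genes through which KRAB zinc finger proteins act were taken as a list of 16, of which 15 had a region and 0 passed (limma, smallest adjusted p 0.354; 2 at an unadjusted p under 0.05, both higher), beside 0.0603% of all regions called and 2.58% higher at an unadjusted p under 0.05. Of the 15 genes 12 had a log2 change above 0 and 3 below, with a median of 0.25. Their means ran from 34.4 to 453 CPM, and 10 of the 15 lay above 50 CPM. None of the 15 lies on chromosome 19. The 11130 coding genes of other chromosomes outside the ZNF set had a median log2 change of 0.13, at a median of 57.6 CPM. By the same unadjusted limit in limma, 1121 of these 11130 genes rose and 150 fell. Gene ends thus rose more often than the 2.58% of all regions, which is a low background for the 15 genes. Whether the 15 genes differ from other gene ends was not tested. SETDB1, the methyltransferase of this pathway, had 33.4, 30.04 and 43.6 CPM under DMSO and 31.9, 37.7 and 37.5 CPM under WM-1119, and the groups overlapped. CBX5 and CBX3, which encode HP1 proteins and share their regions with HNRNPA1 and HNRNPA2B1, had 262 ± 65.3 and 416 ± 80.4 CPM under DMSO and 323 ± 13.1 and 491 ± 33.2 CPM under WM-1119. ATF7IP, whose protein stabilises SETDB1, had 52.9 ± 15.4 and 41.0 ± 7.77 CPM. CBX5, CBX3 and ATF7IP were picked from the list after their values were seen.

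The ZNF genes of other chromosomes differed from those of chromosome 19 in strength and in the median change. Of 181 tested 134 were above 0 and 47 below, with a median log2 change of 0.15, and 0 passed. At an unadjusted p under 0.05 in limma 20 were higher and 0 lower, beside 2.58% and 10.8% of all regions. Other gene ends also differed from all regions. By the same limit 1121 of the 11130 other coding genes of other chromosomes were higher and 150 lower. Among the 810 others of chromosome 19, 64 were higher and 46 lower. The 810 other coding genes of chromosome 19 with a tested region had a median of 0.06 and 0 calls, at a median of 75.4 CPM. For the 11130 other coding genes of other chromosomes the median change was 0.13, at a median of 57.6 CPM. The order of these sets by median change was thus not their order by CPM. These sets differ in mean CPM and share all 6 libraries, and the differences between them were not tested.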

How the data were processed

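H3K9ac libraries of MOLM-13 (3 DMSO, 3 WM-1119) were assigned to groups and replicate numbers from their titles; the 6 input samples were not analysed here. Per the submitters' processing notes, Bowtie2, SAMtools, MACS2 and bedtools were used with the build hg38; versions, roles, the merging of regions and the treatment of duplicate and multiply matching reads are not given in the sources used here. Named TPM by the authors, the deposited values are CPM: each column sums to 1000000 over the listed regions and steps by a fixed amount per read. The step of WM-1119 replicate 2 is too near a round value to exclude rounding, so edgeR used the other 5 libraries. Every pair of libraries differed by more than sampling noise (chi-square per degree of freedom at least 1.66).

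Starts were read as counted from 0, and 1 was added. Genes came from RefSeq (GRCh38.p14), and all 240 symbols matched. limma 3.58.1 in R 4.3.3 (eBayes, trend and robust settings on) took log2(CPM + 1) of regions averaging 1 CPM or more, and treatment was its single term; the script was tested on simulated data. Arms were split at 26 Mb. Other chromosome 19 gene-end regions were compared in classes of mean CPM, their median weighted by the zinc finger genes per class. Strand came from the promoter table; of several windows of a gene the outermost was used, aligned with Biopython 1.88. Counts of zinc fingers and KRAB boxes per protein were not run. Named genes were the 6 with the highest mean, the highest of each cluster, and per direction the 8 with the smallest p among means of at least 10 CPM, with SETDB1 and TRIM28 of the corepressors. The members, lists and tests were chosen with earlier results of these data known. edgeR 4.0.16, Python 3.11.15, pandas 2.3.3, numpy 2.4.6 and matplotlib 3.10.9 were used as well. Alternatives were other pseudocounts, filters, scalings and background subtraction, a replicate block, edgeR, sums over a gene's regions, and leaving out libraries. 1 read was worth 1.39 CPM under DMSO replicate 1 and 0.0787 CPM under WM-1119 replicate 3.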

Additional observations from a re-analysis of the deposited data

How the results depend on the processing

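The count of zinc finger genes passing was 0 in each direction under every planned setting but 1: leaving out 1 library gave 0 to 7 higher and 0 to 17 lower, and the highest values came without DMSO replicate 3. Leaving out 1 library gave medians of -0.09 to -0.05 for all genes, -0.01 to 0.08 for 19p and -0.18 to -0.08 for 19q, and 0.04 to 0.22 for the difference from other gene-end regions. The median of all genes was -0.0032 with background subtracted and -0.0031 with quantile normalization. With median centring it was 0.70, with 0.80 for 19p and 0.64 for 19q, and in edgeR 0.32, with 0.42 and 0.26. The difference from other gene-end regions was -0.12 without DMSO replicates 1 and 2, with DMSO replicate 3 as the only control library. It was 0.058 with comparison regions of nearly the same mean as each gene, and 0.15 with background subtracted. The cause of these shifts was not tested.

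Of the named genes none passed except without DMSO replicate 3, where 14 of 29 did, beside 5.28% of all regions called higher and 38% lower; 16 of the 29 were named for a small p. Without DMSO replicates 1 and 2, DMSO replicate 3 is the only control library. Signs that turned there, beside those given above, were ZNF787 at -0.10, ZNF146 at -0.33, ZNF414 at -0.12, ZNF333 at -0.12, ZNF181 at -0.17, ZNF546 at -0.00043, ZNF526 at -0.12 and ZNF473 at 0.20. The others turned there were ZNF524 at -0.10, ZNF564 at -0.047, ZNF507 at -0.074, ZNF114 at -0.10, ZNF766 at -0.11, ZNF700 at -0.032, ZNF345 and ZNF790 at 0.20, ZNF573 at 0.043 and ZNF235 at 0.25. With quantile normalization ZNF787, ZNF576, ZNF146, ZNF555, ZNF333, ZNF181 and ZNF526 turned to -0.083, -0.12, -0.17, -0.13, -0.0082, -0.0064 and -0.025. With background subtracted ZNF146 and ZNF555 turned to -0.018 and -0.0012. In edgeR ZNF580 and ZNF581 turned to 0.33, ZNF473 to 0.30, ZNF345 and ZNF790 to 0.069 and ZNF235 to 0.035. With median centring they turned to 0.76, 0.65, 0.30 and 0.28 in that order, and ZNF551, ZNF175 and ZNF573 to 0.21, 0.29 and 0.12. Summed over its regions ZNF581 turned to 0.0027. With 1 library left out the sign turned for 9 named genes, whose values ran from -0.17 to 0.20 for ZNF146, -0.022 to 0.29 for ZNF181, -0.018 to 0.14 for ZNF333, -0.29 to 0.10 for ZNF473, -0.14 to 0.35 for ZNF546, -0.025 to 0.17 for ZNF555, -0.043 to 0.18 for ZNF576 and -0.14 to 0.060 for ZNF580 and ZNF581.

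With a replicate block 0 zinc finger genes passed and the median stayed at -0.07, while calls over all regions went from 27 to 496. Deviations of same-numbered libraries correlated at 0.22, 0.05 and 0.33, and those of differently numbered libraries at -0.27 to 0.06. The labels do not say that a number marks a shared culture, so the block was kept as an alternative only. Whether the numbers pair the samples was not tested. DMSO replicate 1, at 719329 reads, limits what can be seen in weak regions.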
